A study of Mus musculus with 2 samples.

Results

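The genes described here build sterols and fatty acids in the cell or control that synthesis. They are a list of 28 genes, matched by their symbol in the gene name column of both arrays, and all 28 were found, on 59 probes. Of these, 27 were measured, meaning that at least 1 probe was called well above background by the scanner software on both arrays, out of 15680 genes measured in all. Scd1 was the exception. The samples were monocytes sorted from mouse spleen with antibodies to CD11b and Ly6C, 8 weeks after surgery, from the outbred ICR stock. The sham group had a sham operation, and the 5/6Nx group had a 5/6 nephrectomy, which removes most of the kidney tissue and serves as a model of chronic kidney disease. The labels name no genetic change and no drug. Each group is 1 RNA sample on 1 one-colour Agilent array, so no difference below has a replicate check and none was tested. The sex and age of the mice and the number behind each RNA are not given in the sources used here.

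Cholesterol is made from acetyl-CoA, first through the mevalonate arm to farnesyl units and then through squalene and lanosterol to the finished sterol. Fatty acids are made from the same acetyl-CoA by carboxylation, assembly of a saturated chain, elongation and desaturation. Transcription of most of these enzymes is driven by the SREBP factors, membrane proteins that SCAP carries from the endoplasmic reticulum to the Golgi for cleavage. When sterols are plentiful, INSIG proteins hold SCAP back, and oxysterols strengthen that hold. In macrophages this programme shapes membranes and inflammatory signalling, and interferon is known to restrain it.

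The scanner software called 63.0% of non-control spots well above background for sham and 67.0% for 5/6Nx, with none saturated. The 75th percentile of intensity was 442 for sham and 548 for 5/6Nx. Levels below are log2 intensity minus that array's percentile, and each difference is 5/6Nx minus sham on this log2 scale. An intensity that was slightly higher on the 5/6Nx array can therefore give a negative difference. Genes of the 2 sort antigens and Csf1r gave strong signal, but those of Ly6C differed between the arrays. Itgam, the gene of CD11b, had intensities of 33016 in sham and 31995 in 5/6Nx. For Ly6C, Ly6c1 had 43112 and 210831 and Ly6c2 had 43666 and 213343, each with a difference of 1.98. Csf1r, the receptor for macrophage colony-stimulating factor, had 70611 and 72856. Of 12 monocyte markers 5 were higher and 2 lower by 2-fold or more, with a summed level of 1399 against 1720 times the 75th percentile. Markers of other cell types also differed between the arrays. Of 13 measured T cell markers 10 were 2-fold or more higher in 5/6Nx and none lower, with 1 more detected (well above background) there only. Their summed level was 29.1 against 91.3, but most of the sham sum came from Il7r, with intensities of 9496 and 9000. Cd3d, by contrast, had 54.2 and 4904. All 5 measured NK cell markers were higher, 7 more were detected in 5/6Nx only, and the summed level of the 5 was 0.751 against 70.9. Of 8 measured B cell markers 3 were higher and none lower, 4 more were detected in 5/6Nx only, and the summed level was 3.44 against 5.80. Cd3e had intensities of 341 and 4817, while Ncr1 was not well above background on the sham array. Platelet markers were split, with 3 of 5 measured lower, 1 higher and 3 more detected in 5/6Nx only. Their summed level was 409 against 26.8, most of it from Pf4, with intensities of 163186 and 10232. The higher one, Clec1b, had 69.3 and 1031, and Gp6, detected in 5/6Nx only, was at least 141-fold higher. The other lists were mixed. Of 7 measured neutrophil markers 3 were higher and 1 lower, with a summed level of 273 against 316. Ly6g was higher, with 41.9 and 1200, Mmp8 was lower, with 9500 and 751, and Ngp, Ltf and Retnlg were detected on neither array. Of 6 measured dendritic cell markers 3 were higher and 1 lower, 2 more were detected in 5/6Nx only and 1 in sham only. Their summed level was 72.9 against 32.7, with most of the sham sum from the lower one, Clec10a, at intensities of 22415 and 1601. Among the higher ones, Batf3 had 38.3 and 919. Of 8 measured red pulp macrophage markers 4 were higher and 3 lower, and 1 more was detected in 5/6Nx only. Their summed level was 154 against 122. Trf was lower, with 26950 and 1979, and Spic was higher, with 82.7 and 4728. Of 8 erythroid markers 2 were measured, 1 of them higher, with 1.25 against 3.82, and 5 were detected on neither array. The part of these cell types in the differences below was not tested. In bulk RNA a lower share of a cell type and less RNA per cell cannot be told apart.

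Under the main scaling most of the measured genes of the list were modestly lower in 5/6Nx, and the largest differences were in 2 desaturases and the SREBP escort. None of the 27 measured genes was at least 2-fold higher, and 3 were at least 2-fold lower, namely Scd2, Fads1 and Scap. Among all 15680 measured genes 12.3% were higher by 2-fold or more, 10.9% were lower by that much and 23.2% were apart in either direction. The 3 lower genes are 11.1% of the measured list, which is near the background share. The median difference of the 27 genes was -0.43, beside -0.12 for all measured genes. Of the 27 genes 20 lay below 0, or 74.1%, beside 56.7% of all measured genes, and 17 lay below the median of all genes. The scaling between arrays sets these counts. With each array's median in place of its 75th percentile 8 genes were at least 2-fold lower. There were 6 with quantile normalization, 5 such genes in the authors' value table, and none with spike-in scaling. Below 0 lay 16 of the 27 genes with cyclic loess and 14 with spike-in scaling. The split of all genes at least 2-fold apart was 52.9% higher here, 40.9% under median scaling and 77.2% under spike-in scaling. All genes together had a median of -0.27 with median scaling, 0.05 with cyclic loess and 0.26 with spike-in scaling. Relative to it, the list median was lower by 0.31 with all scalings that shift a whole array, by 0.19 with quantile normalization and by 0.22 with cyclic loess.

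**Figure D1:**
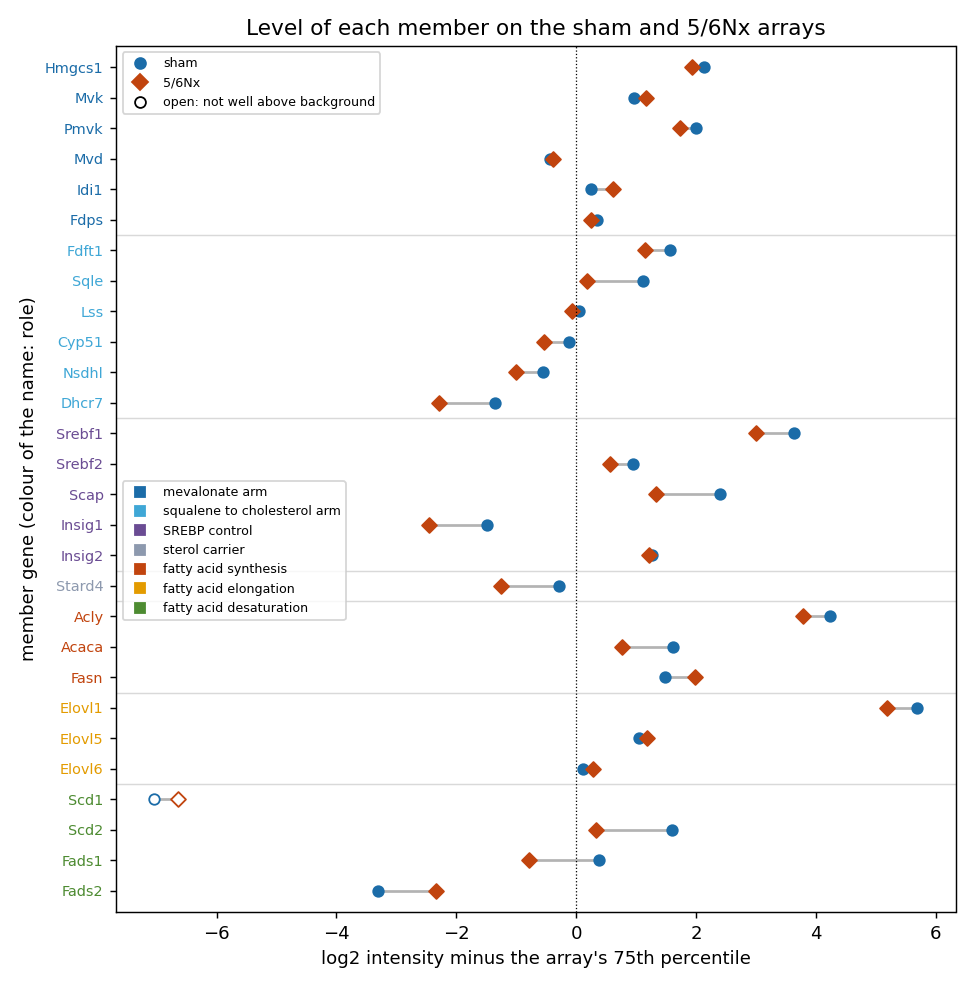
Level of each of the 28 genes on the sham array (circles) and the 5/6Nx array (diamonds), as log2 intensity minus the array's 75th percentile, for the probe that stands for the gene. Open symbols are not well above background (Scd1), and levels of different genes come from different probes and cannot be ranked. The widest gaps to the left are those of Scd2, Fads1 and Scap, and the widest gap to the right is that of Fads2.

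Each value rests on a single spot on each array, for all 27 genes. The error model of the scanner software gives these differences an error of 0.20 to 0.24 on the log2 scale, which covers the measurement of the spot and not the animals, the sort or the labelling. By that measure 16 genes were lower by more than the error, 4 were higher by more than the error, and 7 lay within it. The share of all measured genes beyond their error was not counted, so these counts have no background beside them. Of all measured genes 56.7% lay below 0. Where a gene had several measured probes, the brightest stands for it. Of 16 such genes 4 had probes on both sides of 0, which were Hmgcs1, Nsdhl, Acaca and Elovl5. Of 48 measured probes 36 were below 0, 8 of them at least 2-fold lower, and none was at least 2-fold higher. Probes of the same gene are not independent, and the shares over all measured probes were not counted.

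**Figure D2:**
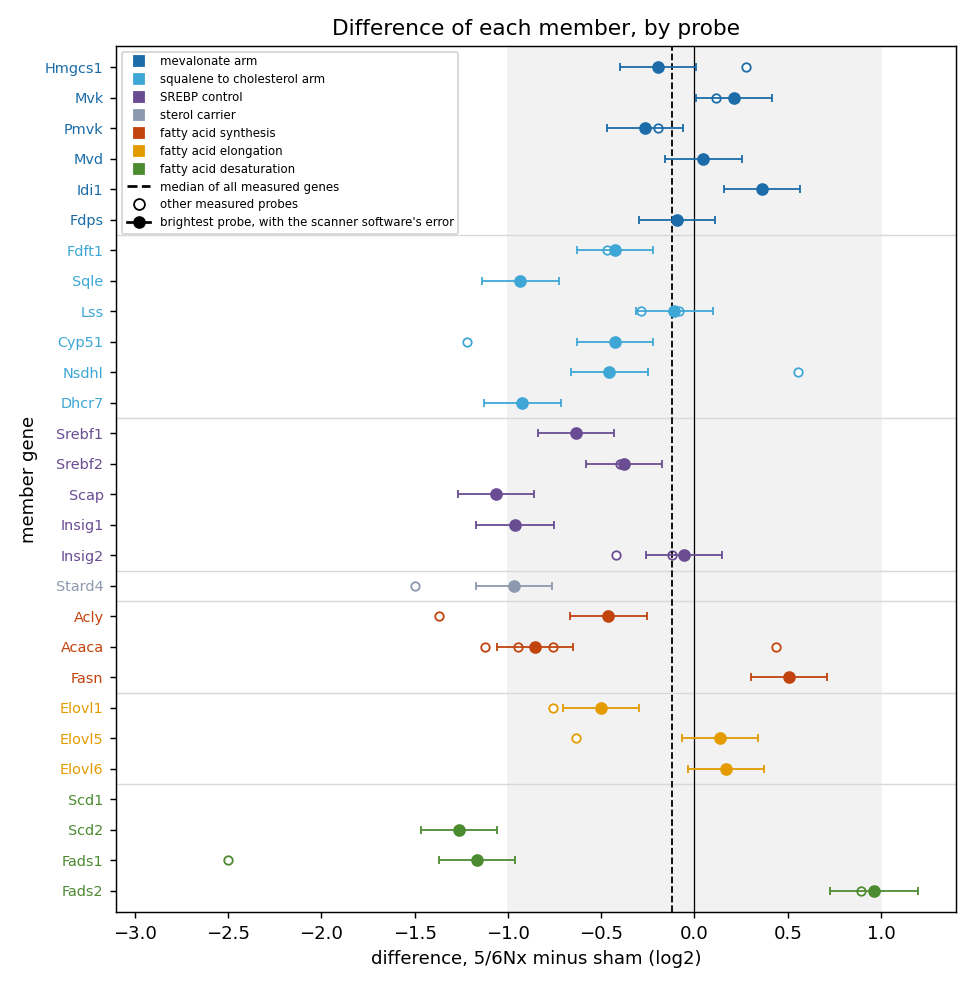
Difference between the arrays for each gene in log2 units. Filled points are the brightest probe with the scanner software's error, open points the other measured probes, the dashed line the median of all measured genes at -0.12, and the grey band differences under 2-fold. The filled points of the squalene and SREBP control genes lie to the left of 0 and those of the mevalonate genes around it, while an open point of Nsdhl at 0.55 lies to the right, and Scd1 has no point because no probe was measured.

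The mevalonate arm showed small differences between the arrays. All 6 genes were within 2-fold, 3 above 0 and 3 below, with a median of -0.02. Hmgcs1, the synthase that makes HMG-CoA, had intensities of 1935 in sham and 2094 in 5/6Nx, a difference of -0.19. Its second, dim probe gave 0.28, and its sign also turned with cyclic loess, spike-in scaling and the mean over probes. Mvk, the mevalonate kinase, had intensities of 859 and 1231 and a difference of 0.21. Pmvk, which adds the next phosphate, had 1759 and 1814, a difference of -0.26 that turned to 0.11 with spike-in scaling. Mvd, the decarboxylase that follows, had 326 and 418, a difference of 0.05 that turned to -0.10 with median scaling. The clearest member of this arm was Idi1, the isomerase that makes the active isoprene unit, with intensities of 527 and 839 and a difference of 0.36. Fdps, which joins isoprene units to farnesyl diphosphate, had 560 and 650, a difference of -0.09 that turned with cyclic loess and spike-in scaling. Of these genes, the signs of Idi1 and Mvk were the ones kept under all 13 alternatives.

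On their brightest probes, all 6 genes of the squalene to cholesterol arm lay below 0, with a median of -0.44, and none was 2-fold apart. Lss lay within the error, at the median of all genes. Lss also turned positive with cyclic loess and spike-in scaling and Nsdhl with the mean over probes. Sqle, the squalene epoxidase and a rate-limiting step, had intensities of 955 in sham and 620 in 5/6Nx, a difference of -0.93. Dhcr7, the reductase that completes cholesterol, had 172 and 112, a difference of -0.92. These were the largest differences of the arm. Fdft1, the squalene synthase that commits farnesyl units to sterols, had 1313 and 1209, a difference of -0.43, and its second probe gave -0.47. Cyp51, which removes a methyl group from lanosterol, had 407 and 375, also a difference of -0.43. Its second probe, dim at 54.5 and 29.0, gave -1.22. Nsdhl, a dehydrogenase of the demethylation steps, had 302 and 272, a difference of -0.46, against 0.55 on a dim second probe. Lss, the cyclase that makes lanosterol, differed least, with 456 and 524 and a difference of -0.11, and its 3 probes ran from -0.29 to -0.08.

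Of the 5 genes that control SREBP 1, Scap, was at least 2-fold lower. All 5 lay below 0, with a median of -0.64, although Insig2 lay within the error and above the median of all genes. Insig2 turned positive in 3 alternatives and Srebf2 in 1, reaching 0.0019 with spike-in scaling. Scap, the escort protein, had intensities of 2326 in sham and 1380 in 5/6Nx, a difference of -1.06 on its single probe (chromosome 9, 110287280 to 110287339, mm9). It lay close to the 2-fold line and was past it in 9 of 14 settings, the main one included, with a range of -1.21 to -0.68. Insig1, the sterol sensor partner that is itself an SREBP target, had 158 and 100, a difference of -0.96. Its relative Insig2, which is not driven by SREBP in the same way, had 1063 and 1266, a difference of -0.06 within the error. The 2 precursors differed less than their escort. Srebf1, which favours fatty acid genes and is also a target of the nuclear receptor LXR, had 5474 and 4360, a difference of -0.64. Srebf2, which favours sterol genes, had 853 and 813, a difference of -0.38, and -0.40 on its second probe. Stard4, a carrier that moves sterol between membranes and is a known SREBP target, had 362 and 229, a difference of -0.97. A dim second probe of Stard4 had 41.9 and 18.3, which is also lower.

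SREBP acts at the promoters of many of these genes, so the promoter sequences of the list were searched for 3 motifs linked to it. RefSeq promoters of 21 of the 28 genes were available here (build GRCm38.p6, 30 windows of 300 bases, 250 before to 50 after the start site). Fads1, Fdft1, Fdps, Scd1, Scd2, Sqle and Stard4 had no entry in the table. Searched on both strands were TCACNCCAC, a form of the sterol regulatory element, CACGTG, the E-box that SREBP can also bind, and CCAAT, the box bound by the SREBP partner NF-Y. The first was in the window of Hmgcs1 and of no other member, and in 1.24% of all 32851 promoters. Other forms of the element and sites outside these windows were not searched, so a member without this match may still have one. The E-box was in windows of Insig1, Dhcr7, Scap and Elovl5, which is 16.7% of the 30 member windows, and in 7.15% of all promoters. The CCAAT box was in windows of 17 of the 21 members, 60.0% of their windows, and in 37.4% of all promoters. No matches of different motifs overlapped in the windows printed. The 250 bases before the start site follow for the member with the sterol element and for 5 others, namely Insig1, Dhcr7 and Scap among the lower genes, and Fads2 and Fasn among the higher ones, with all matches of the 3 motifs in capitals.
Hmgcs1 (chr13:119690101-119690350, plus strand): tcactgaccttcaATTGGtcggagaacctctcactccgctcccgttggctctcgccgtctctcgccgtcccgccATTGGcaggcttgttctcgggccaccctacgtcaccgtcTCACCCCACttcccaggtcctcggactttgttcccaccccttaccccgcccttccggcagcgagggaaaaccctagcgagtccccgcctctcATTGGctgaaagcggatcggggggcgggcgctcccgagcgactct
Insig1 (chr5:28071162-28071411, plus strand): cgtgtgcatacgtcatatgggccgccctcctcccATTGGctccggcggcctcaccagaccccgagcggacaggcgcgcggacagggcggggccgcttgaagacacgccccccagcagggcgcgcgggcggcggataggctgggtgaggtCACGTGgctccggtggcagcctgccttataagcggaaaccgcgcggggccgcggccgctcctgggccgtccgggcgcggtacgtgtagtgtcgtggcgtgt
Dhcr7 (chr7:143829964-143830213, plus strand): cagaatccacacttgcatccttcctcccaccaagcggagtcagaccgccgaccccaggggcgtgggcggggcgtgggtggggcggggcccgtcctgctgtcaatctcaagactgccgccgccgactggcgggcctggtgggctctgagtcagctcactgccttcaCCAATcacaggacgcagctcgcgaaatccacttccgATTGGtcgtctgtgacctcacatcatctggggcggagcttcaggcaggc
Scap (chr9:110333106-110333355, plus strand): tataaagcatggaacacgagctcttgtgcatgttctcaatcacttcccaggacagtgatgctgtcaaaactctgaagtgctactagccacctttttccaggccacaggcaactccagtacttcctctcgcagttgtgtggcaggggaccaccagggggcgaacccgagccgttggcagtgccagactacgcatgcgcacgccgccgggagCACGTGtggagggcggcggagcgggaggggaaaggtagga
Fads2 (chr19:10101504-10101753, minus strand): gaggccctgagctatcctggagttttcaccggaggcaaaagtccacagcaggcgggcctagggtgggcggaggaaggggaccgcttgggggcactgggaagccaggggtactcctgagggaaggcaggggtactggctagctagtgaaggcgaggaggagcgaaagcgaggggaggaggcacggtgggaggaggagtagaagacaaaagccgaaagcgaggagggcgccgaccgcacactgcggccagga
Fasn (chr11:120824548-120824797, minus strand): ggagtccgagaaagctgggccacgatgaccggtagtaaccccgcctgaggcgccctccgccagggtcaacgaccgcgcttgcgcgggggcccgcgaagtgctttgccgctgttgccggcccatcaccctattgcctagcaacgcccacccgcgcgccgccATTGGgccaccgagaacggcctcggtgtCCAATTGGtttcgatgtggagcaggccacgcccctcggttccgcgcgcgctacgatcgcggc

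In Hmgcs1, at -0.19, the sterol element form lay at bases -137 to -129 from the start site. CCAAT boxes on the opposite strand lay at -237 to -233, -176 to -172 and -45 to -41, and at 11 to 15 after the start site. Insig1, at -0.96, held an E-box at -101 to -96 and a reverse CCAAT box at -216 to -212. Dhcr7, at -0.92, has 3 listed start sites, and the window printed, that of the third, holds a forward CCAAT box at -85 to -81 and a reverse one at -49 to -45, while its E-box is before the second. Scap, at -1.06, has 2 listed start sites whose windows overlap, so their matches are of the same E-box, at -40 to -35 in the window printed. Fads2, at 0.96 the largest positive difference among members, has a window that held no match of the 3 motifs. Fasn, at 0.51, held CCAAT boxes at -90 to -86, -62 to -58 and -59 to -55, of which the last 2 overlap on opposite strands. These matches describe letters in a window and do not show that a factor bound there.

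The 3 genes of fatty acid synthesis did not share a direction. Acly, which splits citrate to cytosolic acetyl-CoA, had intensities of 8339 in sham and 7504 in 5/6Nx, a difference of -0.46. A second, dim probe of Acly gave -1.37. Acaca, the carboxylase that makes malonyl-CoA and sets the pace of the pathway, had 1361 and 933, a difference of -0.85. Of its 7 probes 5 were measured, and 4 of these lay between -1.12 and -0.76, while the remaining one gave 0.44. A further Acaca probe was well above background on the sham array only and was at least 1.75-fold lower in 5/6Nx. Such a bound sets the bright value against the lowest signal that counted as well above background on the other array. Fasn, the synthase that assembles palmitate, went the other way, with 1231 and 2164 and a difference of 0.51, and it stayed above 0 in all 13 alternatives.

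The elongases were mixed. Elovl1, which extends saturated and very long chains, had intensities of 22843 and 20016, a difference of -0.50, and -0.76 on its second probe. Elovl5, which extends polyunsaturated chains, had 909 and 1237, a difference of 0.14 that turned to -0.01 with median scaling and to -0.25 with the mean over probes. Elovl6, which extends palmitate to stearate, had 480 and 669, a difference of 0.17. The last 2 differences were within the error.

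The desaturases Scd2 and Fads1 had the widest gaps of the list, both lower in 5/6Nx, while Fads2 was higher on dim probes. Scd2, a stearoyl-CoA desaturase that makes monounsaturated fatty acids, had intensities of 1331 in sham and 688 in 5/6Nx on its single probe (chromosome 19, 44381024 to 44381083, mm9). The difference was -1.26, or 2.40-fold lower, and it was past 2-fold in 13 of 14 settings, the exception being spike-in scaling at -0.88. Scd1, the main hepatic form, had 2 probes with intensities of 3.37 and 3.12 in sham and 5.49 and 3.22 in 5/6Nx. None was well above background, so no fold is given. The longest run of bases shared between probes of different Scd genes was 10 of 60 bases. Probes were compared with each other and not with transcripts, so this does not show that a probe is specific to its gene.

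Fads1, the delta-5 desaturase that makes arachidonic and eicosapentaenoic acid, was lower on all 3 of its probes. The brightest (chromosome 19, 10261805 to 10261864, mm9) had 577 in sham and 319 in 5/6Nx, a difference of -1.17. Another, almost as bright on the sham array (10270530 to 10270589), had 532 and 116, a difference of -2.50. The third (10257644 to 10257703) had 45.8 in sham and 2.96 in 5/6Nx, where it was not well above background, and was at least 4.14-fold lower. The size for Fads1 thus depends on the probe, and with probes named through RefSeq accessions the gene value was -2.50, while the direction was the same on all 3 probes and in all 14 settings. The exon or UTR position of these probes on mm9 was not used here.

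Fads2, the delta-6 desaturase that catalyses the step before Fads1, lies in the same gene cluster on chromosome 19 and was higher. Its brightest probe had 44.9 in sham and 109 in 5/6Nx, a difference of 0.96, and a second measured probe had 31.6 and 72.5, a difference of 0.89. Both are dim, and with normexp background correction the gene value was 0.36. Of the other 3 probes, 1 was well above background on the sham array only, at least 1.46-fold lower in 5/6Nx, and 2 were on neither array. Fads2 passed 2-fold upward with spike-in scaling, at 1.34, and with the percentile taken over measured probes, at 1.03.

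**Figure D3:**
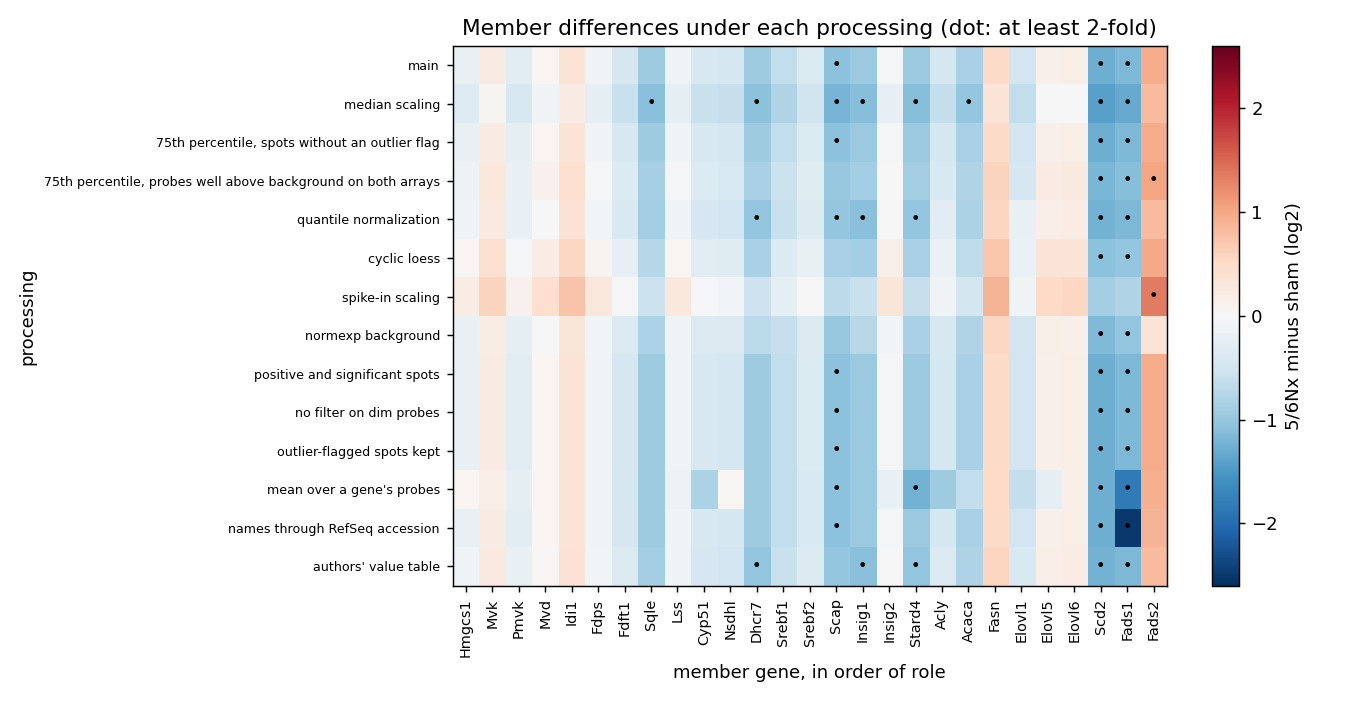
Difference in log2 units (colour, blue lower and red higher on the 5/6Nx array) for the 27 measured genes (columns, by role) under the main processing and 13 alternatives (rows), with a dot where the difference is at least 2-fold. Scd2 and Fads1 carry a dot in 13 of 14 rows and Scap in 9, and spike-in scaling shifts the whole row upward.

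Over the 14 settings 13 genes lay below 0 throughout, namely Fdft1, Sqle, Cyp51, Dhcr7, Srebf1, Scap, Insig1, Stard4, Acly, Acaca, Elovl1, Scd2 and Fads1. Another 5 lay above 0 throughout, namely Idi1, Mvk, Fasn, Elovl6 and Fads2. The other 9 changed sign in at least 1 setting. The share of all measured genes that kept their sign was not counted. Some settings, such as keeping outlier-flagged spots, left the values of these genes as in the main one. Between 1.5-fold and 2-fold lower were 6 genes, Stard4, Insig1, Sqle, Dhcr7, Acaca and Srebf1, so that 9 were at least 1.5-fold lower in all, and Fads2 alone was at least 1.5-fold higher. Among all measured genes 23.2% were at least 1.5-fold lower and 20.8% at least 1.5-fold higher.

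Other genes of these pathways, from 4 lists that leave out the 28, included genes with wider differences. Of 45 measured genes 6 were 2-fold or more higher and 11 lower, with a median of -0.37, where all measured genes had shares of 12.3% and 10.9% and a median of -0.12. These shares are also the background for each list that follows. In sterol synthesis and uptake 11 were measured, 1 higher and 2 lower, with a median of -0.10. Tm7sf2, a sterol reductase, had intensities of 549 and 333, a difference of -1.03. Idi2, a relative of Idi1, had 50.5 and 129, a difference of 1.04 on a dim probe. Tm7sf2 and Idi2 were each past 2-fold in 10 of 14 settings.

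In fatty acid synthesis 17 other genes were measured, 2 higher and 5 lower, with a median of -0.72. Among the lower genes were Me1 and Slc25a1. Me1, the malic enzyme that makes NADPH, had 2553 in sham and 810 in 5/6Nx, a difference of -1.96, and Slc25a1, which exports citrate from mitochondria, had 1333 and 743, a difference of -1.15. Acss2, which makes acetyl-CoA from acetate, had 1130 and 2196, a difference of 0.65, and another of its probes gave -0.26. The other 3 lower genes act in the elongation cycle. Hacd1, a dehydratase of that cycle, had 1903 and 427, a difference of -2.46. Hacd4, of the same family, had 1756 and 667, a difference of -1.70. Hsd17b12, a reductase of the cycle, had 1771 and 960, a difference of -1.19, although another of its probes gave 0.44. Hacd2, Hacd3 and Tecr, of the same cycle, were within 2-fold, with differences of -0.99, -0.50 and -0.56. Me1, Hacd1 and Hacd4 were past 2-fold in all 14 settings, and Slc25a1 and Hsd17b12 in 11. Higher were Elovl7, with 132 and 383 and a difference of 1.23, and Scd4, with 2787 and 11342 and a difference of 1.72. Another Scd4 probe gave -0.17, and the mean over the probes of Scd4 was 0.77. Elovl2, Elovl3 and Elovl4 were detected in 5/6Nx only, and the bounds were at least 2.17-fold and 3.09-fold higher for Elovl2 and Elovl3, with none for Elovl4.

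Of the genes for SREBP processing and turnover 10 were measured, 1 lower and none higher, with a median of -0.21. The lower one was Vcp, the ATPase that extracts proteins from the endoplasmic reticulum, with 13046 and 7755 and a difference of -1.06. Its probes ran from -1.48 to 0.23, and it was past 2-fold in 8 of 14 settings.

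The genes of oxysterol and LXR control differed most, in both directions. Of 7 measured 3 were higher and 3 lower, so that the median of -0.05 hides the spread. Ch25h, the hydroxylase that makes an oxysterol able to restrain SREBP and that interferon is known to induce, had intensities of 22.1 in sham and 8808 in 5/6Nx, a difference of 8.33. Because the sham signal was near background, the size depends on the correction, and normexp gave 6.41. Nr1h3, which encodes the oxysterol receptor LXR alpha, had 623 and 8012, a difference of 3.38, whereas its relative Nr1h2, LXR beta, had 6678 and 7963, a difference of -0.05 whose sign turned in several settings. Targets of these receptors were split. The sterol exporter Abcg1 had 2558 and 7741, a difference of 1.29. Abca1, another exporter, had 5111 and 1951, a difference of -1.70, and Mylip, a ubiquitin ligase of lipoprotein receptors, had 3719 and 1185, a difference of -1.96. Cyp27a1, a mitochondrial sterol hydroxylase, had 59.6 and 16.5, a difference of -2.17 that was -0.88 with normexp. Cyp7b1, which inactivates oxysterols, was detected in 5/6Nx only, at least 1.79-fold higher. The summed T cell marker level on these arrays was 29.1 against 91.3, with most of the sham sum from Il7r, which differed little. The part of T cells in these differences was not tested.

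**Figure D4:**
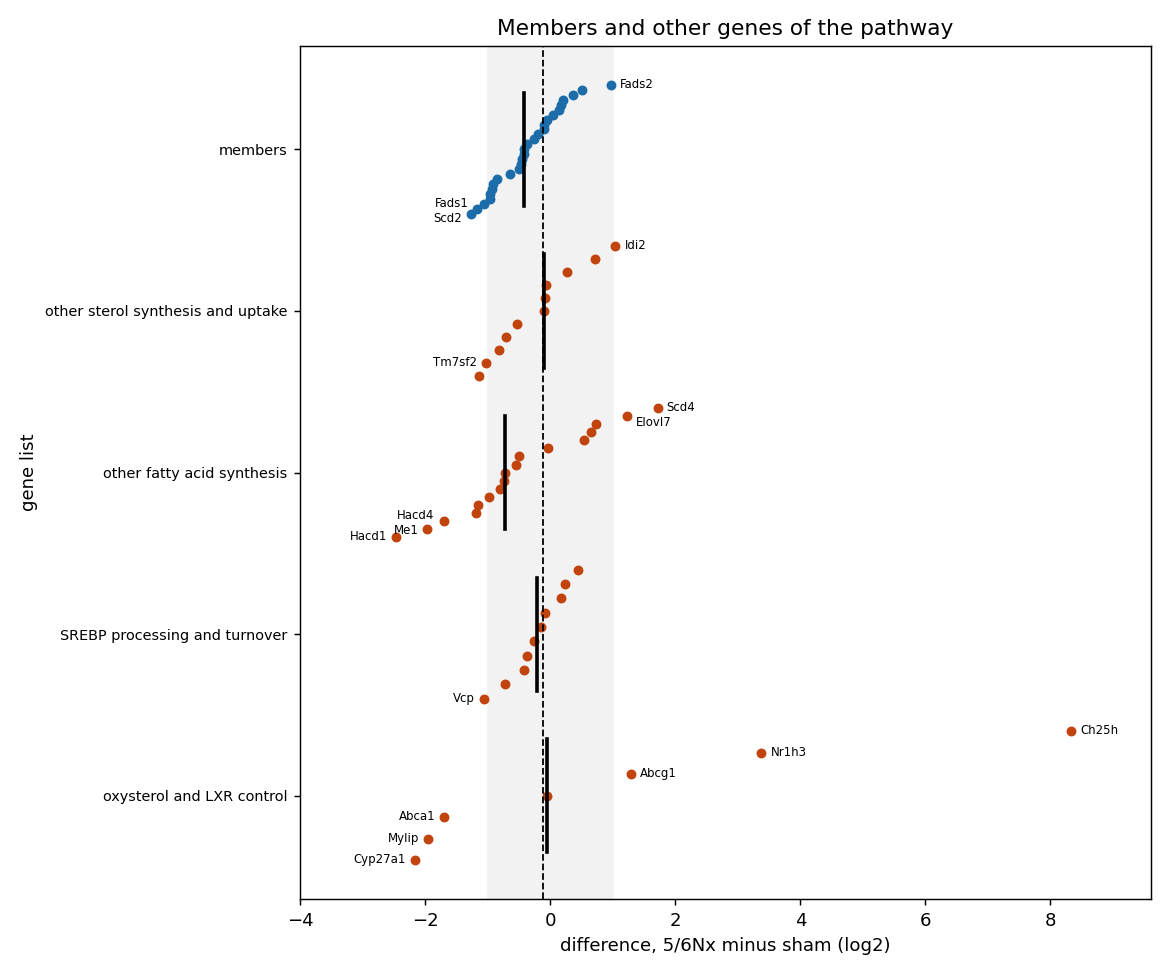
Difference between the arrays in log2 units for the 27 measured members (blue) and the 45 other measured genes of the pathway in 4 lists (orange-brown). Each point is a gene, the black bars are list medians, the dashed line is the median of all measured genes and the grey band marks differences under 2-fold. The members span -1.26 to 0.96, while the oxysterol and LXR genes span -2.17 to 8.33.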

How the data were processed

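RNA of sorted splenic monocytes was amplified, labelled with Cy3 and hybridised, with 1 array per group, per the labels. The authors' scanner output gives linear intensity, made with Agilent Feature Extraction, version 9.5.1.1 per the submitters' processing notes and 10.7.1.1 in the parameter block. Per the file headers, this intensity had its background subtracted and was detrended within each array, with a surrogate value for low spots and no scaling between arrays. The authors' value table, with medians of 47.5 and 48.2, holds intensity values scaled in a way the sources do not state. It was used as an alternative.

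Outlier-flagged spots (41 and 47) were left out, spots of a probe averaged, and log2 intensity set relative to the 75th percentile of all non-control spots on each array. A gene is its brightest probe well above background on both arrays, under its name in the files where that name is a RefSeq symbol or synonym (43595 of 56605 probes, 24776 genes). Probe positions are those of the files, on mm9. With 1 array per group no test was run, and the number of arrays limits the precision. A difference of at least 2-fold is counted, in each direction. The error of a difference combines the scanner software's errors of both arrays. Over 283 probes with at least 8 spots, the SD of the difference between spots of a probe was 0.0594 in log2 units.

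The members and lists were chosen with earlier results of these data known. By a fixed rule the text names all members, the genes at least 2-fold apart in each pathway list and the defining markers, of which 1 of each kind is not reported here. It also names Acss2, other genes of the elongation cycle, Nr1h2 and Scd3. Also named are the markers Ly6c1, Ly6c2, Il7r, Cd3d, Pf4, Clec1b, Mmp8, Ngp, Ltf, Retnlg, Clec10a, Batf3, Trf and Spic. All of these, and the genes above background on 1 array, were chosen after their values were seen. Acat2 was not matched by name and is not analysed here. The scripts were first tested on simulated data. Alternatives were 6 scalings, normexp (offset 50), 2 filters, kept outliers, probe means, RefSeq naming, the authors' table and a 1.5-fold threshold, run with Python 3.11.15, R 4.3.3 and limma 3.58.1.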

Additional observations from a re-analysis of the deposited data

How the results depend on the processing

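The median difference of the 27 genes was -0.43 and stayed below 0 in all 13 alternatives, at -0.58 with median scaling, -0.36 with the percentile over probes measured on both arrays, -0.30 with quantile normalization, -0.17 with cyclic loess and -0.0480 with spike-in scaling. The other 8 medians moved by less than the spread between spots of a probe. The count of genes at least 2-fold lower, 3 in the main processing, was 8 with median scaling, 6 with quantile normalization, 5 in the authors' value table, 0 with spike-in scaling and 9 at a 1.5-fold threshold. The count higher, 0 in the main processing, was 1 with spike-in scaling, with the percentile over measured probes and at 1.5-fold, where Fads2 was the gene. Of the other pathway genes 11 were lower, against 6 with cyclic loess, 6 with spike-in scaling and 18 at 1.5-fold. Scap, Scd2 and Fads1 kept their sign in all alternatives. Of 351 single values of the 27 genes under alternatives, 206 moved by less than the spot spread and 145 by more, and 16 had the other sign. No paired analysis was possible because each group has 1 array. Dim probes, such as those of Fads2, Cyp27a1 and Ch25h, limit how firmly a fold can be given.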

Other observations

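The stearoyl-CoA desaturase family, which introduces the first double bond into saturated fatty acids, did not share a direction. Scd2 was lower on the 5/6Nx array, at -1.26, while Scd3 had intensities of 1334 in sham and 2752 in 5/6Nx, a difference of 0.74. Scd4 was higher, at 1.72 on its brightest probe and -0.17 on another, and in the mean over its probes it differed by 0.77. Scd1 was not well above background on either array. Scd3 stayed above 0 in all 14 settings, from 0.59 to 1.11, and Scd2 stayed below 0. Whether the forms come from the same cells was not tested.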
